A study of Mus musculus with 4 samples.

Results

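Laminins, the proteins that tie them into basement membranes and the integrins through which cells hold on to matrix were read in glomerular RNA as a family of 38 genes out of 18193 genes named on the array. The members were all genes whose symbol is that of a laminin chain, an integrin alpha subunit or an integrin beta subunit numbered with a single digit, together with Nid1, Nid2, Hspg2 and Agrn. Of the 38 members, 22 lay among the 9097 genes (50%) with the highest mean signal over the 4 arrays and 16 lay among the dimmer genes. Itga11 and Itgad were not analysed here.

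Glomerular RNA of male mice was hybridised to 1 Affymetrix array for each of 4 groups. KO ALDO mice had a systemic knockout of GC-A (guanylyl cyclase A, through which the natriuretic peptides of the heart signal) and received aldosterone by infusion with a 6% salt diet. WT ALDO mice were wild type and had the same treatment. KO control and WT control mice had the 2 genotypes and received 2% ethanol by infusion with a normal diet. All 4 groups had undergone removal of a kidney, so none shows an animal with both kidneys, and the ALDO treatment lasted 3 weeks by the series' design text. The knockout was in the whole body, so the glomerulus was not the only organ without the receptor. The labels state neither age nor strain nor how many mice lie behind an array.

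A basement membrane is a sheet of matrix in which laminins, each made of an alpha, a beta and a gamma chain, form a network on the cell surface. Nidogens link that network to type IV collagen, and the heparan sulfate proteoglycans perlecan and agrin bind to it. In the glomerulus, podocytes and endothelial cells face each other across a shared basement membrane, and mesangial cells hold the capillary loops together through a matrix of their own. Integrins are pairs of an alpha and a beta subunit that bind these ligands outside the cell and the actin cytoskeleton inside it.

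Each value is a probe set intensity on a linear scale in array units, and each difference is a log2 difference of intensity + 16 between 2 arrays, a scale that understates the change of dim genes. Each group had 1 array, so no difference could be set against a spread between animals. No test was made, since a fit of genotype and treatment to 4 arrays would have to take their interaction as its error, and a member is called only where it differed 2-fold or more. The array medians were 103.1, 91.9, 97.7 and 89.5 in KO ALDO, WT ALDO, KO control and WT control. The ratio of the 3′ to the 5′ probe set of beta-actin, a sign of RNA quality, was 1.61 and 1.67 in KO ALDO and KO control, against 1.87 and 1.86 in WT ALDO and WT control. Its part in the genotype differences below was not tested. The probe set of Npr1, which encodes GC-A, was dim, with 23.4 in KO ALDO, 60.5 in WT ALDO, 108 in KO control and 92.6 in WT control, so it gave no check of the genotype labels. Podocyte genes were present (Nphs1, which encodes nephrin, had 1675 to 1899 over the 4 arrays), but so were tubule genes (Lrp2, which encodes the proximal tubule receptor megalin, had 10903 to 15141).

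Across the 22 brighter members, KO ALDO was the array with the highest signal for 16, where it was highest for 33.5% of all 9097 brighter genes. WT control was the lowest array for 12 of the 22, against 28.6% of the brighter genes. KO was above WT under both treatments for 16 of the 22 members, against 34.8% of the brighter genes. The 16 members highest in KO ALDO include Lama2, Nid2 and Itga9, which were under the border of the brighter genes on both control arrays. Itga9 also counts among the 12 lowest in WT control and the 16 with KO above WT. These counts are thus tied in part to the filter on signal. Nid1, Itga6 and Itgav are examples of members with the highest signal in KO ALDO. Lama3, Itgb6 and Itgb8 were instead highest in WT control, and Lama5, Lamc1 and Itga2b in KO control. The differences were mostly small, and 1 of the 22 reached 2-fold in any of the 4 pairs of arrays.

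**Figure D1:**
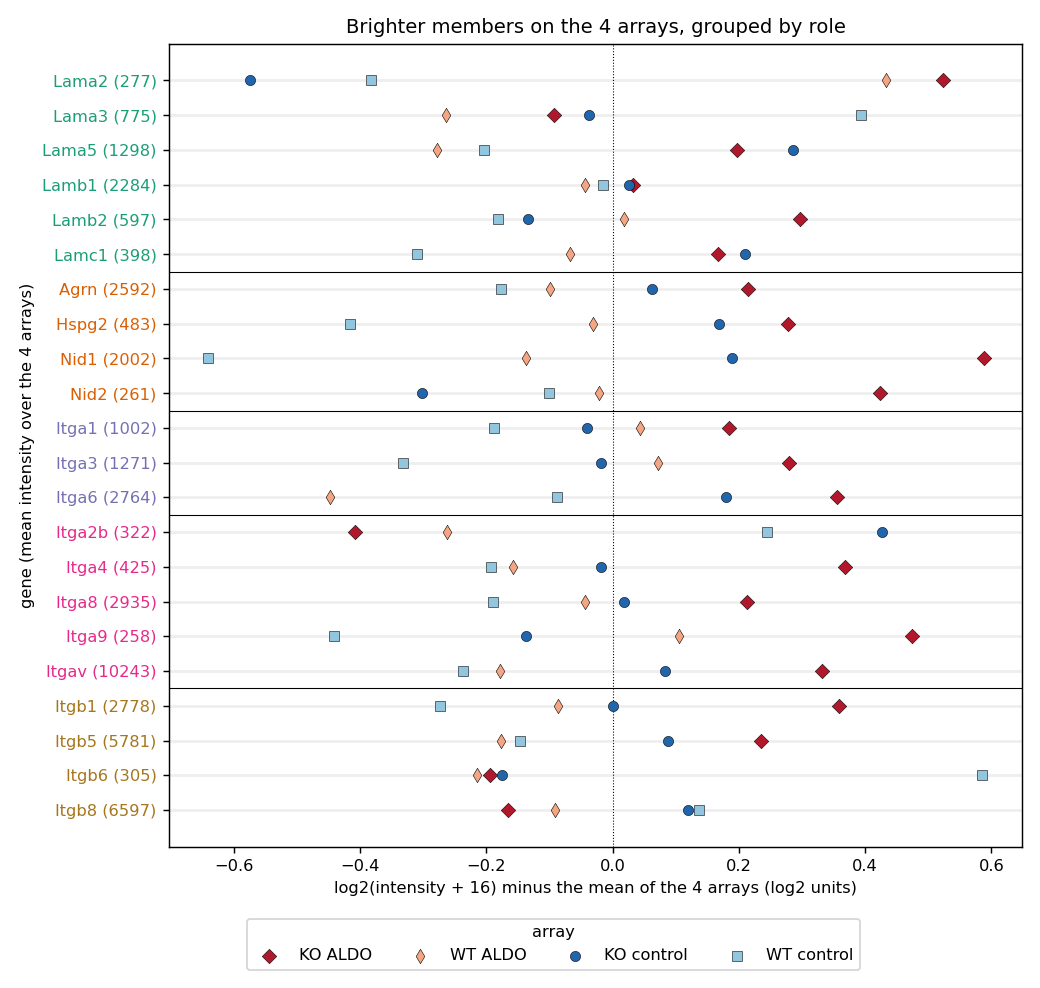
Signal of the 22 brighter members on each array, as log2(intensity + 16) minus the mean of the member's 4 arrays (x axis, log2 units), with 1 point per array and the mean intensity in brackets. From top to bottom the blocks are laminin chains, laminin partners, integrin alpha subunits that bind laminin or collagen, other integrin alpha subunits, and beta subunits; KO ALDO is the rightmost array for 16 members.

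Among the laminin partners, Nid1 (nidogen 1, which joins laminin to type IV collagen) had the clearest pattern by genotype. Its intensity was 2877 in KO ALDO, 1734 in WT ALDO, 2179 in KO control and 1219 in WT control. Both KO arrays were above both WT arrays. The log2 difference was 0.72 for KO ALDO against WT ALDO and 0.83 for KO control against WT control, and it was larger than that of 96.4% and 98.45% of the brighter genes. Nid1 was also higher under ALDO than under control in KO (0.40) and in WT (0.50). The next-brightest Nid1 probe set had 527 in KO ALDO, 308 in WT ALDO, 417 in KO control and 336 in WT control. It gave genotype differences of 0.75 and 0.30, and an ALDO difference of 0.33 in KO but of -0.12 in WT.

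The promoter of Nid1 is shown because Nid1 had the widest genotype differences of the brighter matrix members under both treatments, with that of Lama2, which had the widest ALDO differences, and that of Itgax, a leukocyte subunit described further on. Each stretch runs from 250 bases before to 50 bases after the gene's start on the gene's own strand, from RefSeq on build GRCm38.p6. Nid1 lies at chr13:13437352-13437651 on the plus strand, Lama2 at chr10:27616893-27617192 on the minus strand and Itgax at chr7:128129300-128129599 on the plus strand. Capitals mark matches on either strand to 4 motifs. The GC box bound by SP1 was searched as GGGCGG. The box named for its own letters was searched as CCAAT. The half-site of steroid receptors, which include the aldosterone receptor, was searched as TGTTCT. The core letters of ETS factors such as PU.1 were searched as GAGGAA.
Nid1: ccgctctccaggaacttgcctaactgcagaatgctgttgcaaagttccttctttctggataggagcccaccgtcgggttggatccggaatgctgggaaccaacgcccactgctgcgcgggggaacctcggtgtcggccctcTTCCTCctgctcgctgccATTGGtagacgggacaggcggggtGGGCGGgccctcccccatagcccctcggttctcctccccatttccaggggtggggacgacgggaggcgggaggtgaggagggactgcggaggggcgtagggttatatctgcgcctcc
Lama2: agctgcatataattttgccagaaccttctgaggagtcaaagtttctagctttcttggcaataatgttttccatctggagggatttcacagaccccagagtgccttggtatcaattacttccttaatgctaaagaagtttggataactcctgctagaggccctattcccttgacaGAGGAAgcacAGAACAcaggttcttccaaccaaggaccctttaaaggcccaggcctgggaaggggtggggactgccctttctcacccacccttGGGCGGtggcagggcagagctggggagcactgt
Itgax: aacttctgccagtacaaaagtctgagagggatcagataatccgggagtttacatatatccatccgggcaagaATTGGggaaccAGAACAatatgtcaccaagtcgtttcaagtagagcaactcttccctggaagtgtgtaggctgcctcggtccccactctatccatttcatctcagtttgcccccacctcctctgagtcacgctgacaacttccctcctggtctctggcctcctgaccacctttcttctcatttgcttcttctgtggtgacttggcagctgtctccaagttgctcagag
The half-site letters stood in the windows of Lama2 and Itgax and not in that of Nid1. Among 32851 RefSeq promoters of this length the half-site was held by 19%, the GC box by 35.7%, the CCAAT box by 37.4% and the ETS core by 28.3%. Promoters were found for 25 of the 38 members, and in at least 1 window 6 of these 25 held the half-site, 14 the GC box, 5 the CCAAT box and 14 the ETS core. A match describes the letters of the window only, and the matched strings do not overlap in the 3 promoters shown.

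The other 3 laminin partners were highest in KO ALDO as well. Hspg2 (perlecan) had 579 in KO ALDO, 464 in WT ALDO, 536 in KO control and 352 in WT control. WT control was the array that stood lowest. Its genotype differences were 0.31 under ALDO and 0.58 under control, but a second Hspg2 probe set of similar brightness gave -0.65 and 0.41, so the direction under ALDO depended on the probe set. Agrn (agrin, the main heparan sulfate proteoglycan of the glomerular basement membrane) had 2993 in KO ALDO, 2405 in WT ALDO, 2692 in KO control and 2278 in WT control, with differences of 0.31 and 0.24. Nid2 (nidogen 2) had 349 in KO ALDO, 253 in WT ALDO, 205 in KO control and 238 in WT control. Only KO ALDO stood apart for Nid2, 0.73 above KO control, while WT ALDO was 0.08 above WT control. All 4 partners were above 0 in KO ALDO against WT ALDO, with a median of 0.38, and 3 of 4 in KO control against WT control, with a median of 0.41.

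Among laminin chains, Lama2, the alpha chain of the mesangial and muscle laminins, followed treatment. Its intensity was 382 in KO ALDO, 358 in WT ALDO, 170.4 in KO control and 197 in WT control. Both ALDO arrays were above both control arrays. The log2 difference was 1.10 (2.14-fold) for KO ALDO against KO control and 0.82 (1.76-fold) for WT ALDO against WT control. Lama2 was the only brighter member called in any pair of arrays, and 0.572% of the brighter genes were called higher in KO ALDO against KO control. With a pseudocount of 64 in place of 16 its difference was 0.93, which is no longer 2-fold. Lama2 has a single probe set and is dim. Its log2 signal was 8.64 in KO ALDO, 8.55 in WT ALDO, 7.54 in KO control and 7.73 in WT control, so it came above the border of the brighter genes (8.04) only through the ALDO arrays on which it is high, and its call supports nothing about the family. Smooth muscle and pericyte markers moved in the same direction, with 6 of 6 brighter markers above 0 in both ALDO comparisons. Of these, Myh11 was under the border in WT control (an intensity of 178 against 247), so its WT difference is tied to the filter. The summed intensity over 7 markers was 24920 in KO ALDO, 17738 in WT ALDO, 14019 in KO control and 12659 in WT control. Fibroblast markers were likewise above 0 in 4 of 4, with a sum over 7 markers of 11802, 6177, 7493 and 4822 on those arrays. Mesangial markers were less uniform, with 6 of 8 above 0 in KO and 5 of 8 in WT, where 52.3% and 51.9% of the brighter genes were. The part of any of these cell types in the Lama2 values was not tested. In bulk RNA more cells of a type and more RNA per cell cannot be told apart.

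The chains of the mature glomerular basement membrane laminin did not move as a unit. Lama5, its alpha chain, had 1468 in KO ALDO, 1051 in WT ALDO, 1562 in KO control and 1109 in WT control. Both KO arrays were above both WT arrays (0.48 under ALDO and 0.49 under control), and ALDO against control was near 0 in KO (-0.09) and in WT (-0.08). The next-brightest Lama5 probe set gave genotype differences of -0.05 and 0.25 and ALDO differences of 0.21 in KO and 0.51 in WT, so the Lama5 pattern depended on the probe set. Lamb2, its beta chain, whose loss causes nephrotic syndrome, had 731 in KO ALDO, 599 in WT ALDO, 538 in KO control and 519.8 in WT control, so that both ALDO arrays were above both control arrays. Lamc1, the gamma chain shared by most laminins, had 444 in KO ALDO, 375 in WT ALDO, 458 in KO control and 315 in WT control. Its genotype difference was 0.23 under ALDO and 0.52 under control. The next-brightest Lamc1 probe set was dim, with 164 in KO ALDO, 104 in WT ALDO, 79.2 in KO control and 125 in WT control. It gave 0.59 and -0.57, so the direction under control depended on the probe set.

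Lamb1, the beta chain of the immature glomerular basement membrane and the mesangial matrix, varied least of the 22 brighter members by its brightest probe set, with 2335 in KO ALDO, 2216 in WT ALDO, 2325 in KO control and 2260.3 in WT control, a range of 0.08 on the log2 scale. Its next-brightest probe set varied more, with 504 in KO ALDO, 403 in WT ALDO, 591 in KO control and 464 in WT control, and gave genotype differences of 0.31 and 0.34 and ALDO differences of -0.22 in KO and -0.19 in WT. Lama3, an alpha chain of epithelial laminins, had 715 in KO ALDO, 634 in WT ALDO, 744 in KO control and 1008 in WT control. It was WT control that stood high, and Lama3 was lower by -0.43 in KO control and by -0.66 in WT ALDO, each against that array. All 6 brighter laminin chains were above 0 in KO ALDO against WT ALDO (median 0.20, from 0.08 to 0.48). In KO control against WT control 4 of 6 were above 0 (median 0.04).

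Of the laminin-binding alpha subunits, Itga6, which pairs with Itgb1 or Itgb4, had the largest difference of the 22 brighter members in KO ALDO against WT ALDO. Its intensity was 3467 in KO ALDO, 1979.65 in WT ALDO, 3065 in KO control and 2544 in WT control. Both KO arrays were above both WT arrays, and WT ALDO was the lowest. The difference was 0.80 under ALDO and 0.27 under control, and the next-brightest probe set gave 0.69 and 0.32. That probe set had 1256 in WT ALDO and 1254 in WT control, so the low WT ALDO value was not seen with it. Itga3, whose product pairs with Itgb1 as the main laminin receptor of podocytes, had 1528 in KO ALDO, 1322 in WT ALDO, 1240.04 in KO control and 995 in WT control. Itga1, a collagen receptor subunit of mesangial cells, had 1136 in KO ALDO, 1028 in WT ALDO, 970.1 in KO control and 874 in WT control. By their brightest probe sets these 2 subunits were in the same order on the 4 arrays and differed by at most 0.40 between arrays of a pair. The next-brightest Itga3 probe set had 339 in KO ALDO, 213 in WT ALDO, 238 in KO control and 160 in WT control. It gave genotype differences of 0.63 and 0.53, so neither the order nor that limit held with it.

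Of the other alpha subunits, Itgav, whose product pairs with several beta subunits and binds vitronectin and latent TGF-beta, had 12739 in KO ALDO, 8934 in WT ALDO, 10716 in KO control and 8584 in WT control. Both KO arrays were above both WT arrays, by 0.51 under ALDO and 0.32 under control. Itga8, a subunit of mesangial cells whose ligand is nephronectin, had 3389 in KO ALDO, 2833 in WT ALDO, 2959 in KO control and 2561 in WT control, with differences of 0.26 and 0.21. Its ligand gene Npnt had 6098 in KO ALDO, 4916 in WT ALDO, 5331 in KO control and 3795 in WT control. The 8 mesangial markers, a list that holds Itga8 itself, had a summed intensity of 17286 in KO ALDO, 14857 in WT ALDO, 13428 in KO control and 12349 in WT control, and 6 of 8 were above 0 in each genotype comparison. Their part in the Itga8 values was not tested.

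Itga4 and Itga9 bind ligands of inflamed or injured tissue, VCAM1 for Itga4 and tenascin C for Itga9. Itga4 had 547 in KO ALDO, 375 in WT ALDO, 414 in KO control and 366 in WT control, so that KO ALDO stood above the other 3 arrays. The KO ALDO difference was 0.53 from WT ALDO and 0.39 from KO control, and the next-brightest Itga4 probe set gave 0.94 and 1.01. That probe set also put KO control 0.64 and WT ALDO 0.71 above WT control, where the brightest gave 0.17 and 0.03. How close the other 3 arrays lay to each other thus depended on the probe set. Itga9 had 354 in KO ALDO, 271 in WT ALDO, 226 in KO control and 180.1 in WT control, and the differences were 0.37 and 0.30 for genotype and 0.61 in KO and 0.55 in WT for ALDO. By the brightest probe sets these ligand genes had wider genotype differences than the subunits. The next-brightest Itga9 probe set, which is dim, gave 0.55 under ALDO and 0.88 under control, where Tnc had 1.99 and 0.81. The ranking of Tnc and Itga9 under control thus depended on the probe set. Vcam1 had 1026 in KO ALDO, 399.9 in WT ALDO, 894 in KO control and 325 in WT control. Tnc had 665 in KO ALDO, 155 in WT ALDO, 350.4 in KO control and 193 in WT control. On both WT arrays Tnc was under the border of the brighter genes, an intensity of 247, so its genotype differences are tied to the filter.

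Itga2b, the alpha subunit of the platelet fibrinogen receptor, had the lowest ALDO difference in KO of the 22 brighter members, with 232 in KO ALDO, 258 in WT ALDO, 425 in KO control and 373 in WT control. Both ALDO arrays were below both control arrays, by -0.83 in KO and -0.51 in WT. Of the 6 measured megakaryocyte and platelet markers, Itga2b and Pf4 were among the brighter genes. Pf4, which macrophages can also express, went by genotype instead, with 457 in KO ALDO, 215 in WT ALDO, 506 in KO control and 212 in WT control. On both WT arrays Pf4 was under the border of the brighter genes, an intensity of 247. It passed the border through the KO arrays, so its pattern by genotype is tied to the filter.

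Among beta subunits, Itgb1, the partner of most matrix-binding alpha subunits, had 3519 in KO ALDO, 2582 in WT ALDO, 2745 in KO control and 2266 in WT control. Both KO arrays were above both WT arrays, by 0.44 and 0.27, and the next-brightest probe set gave 0.53 and 0.30. Itgb5, which with Itgav forms a vitronectin receptor, had 6762 in KO ALDO, 5077 in WT ALDO, 6101 in KO control and 5183 in WT control. Its differences by genotype were 0.41 and 0.23, with 4 probe sets above 0 in both genotype comparisons. Its differences by ALDO were 0.15 in KO and -0.03 in WT.

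Itgb6 and Itgb8, whose products pair with Itgav and activate latent TGF-beta, did not follow Itgb1 and Itgb5. Itgb6, a subunit of epithelial cells, had 256 in KO ALDO, 252 in WT ALDO, 259.8 in KO control and 451 in WT control. By this brightest Itgb6 probe set the first 3 arrays were close together and WT control alone was high. The differences of -0.76 for KO control and -0.80 for WT ALDO thus both come from the WT control array. The next-brightest Itgb6 probe set had 139 in KO ALDO, 115 in WT ALDO, 95.6 in KO control and 149 in WT control. With it KO ALDO was near WT control and 0.48 above KO control, so WT control did not stand alone. Itgb8 had 5858 in KO ALDO, 6167 in WT ALDO, 7139 in KO control and 7224 in WT control. It was lower under ALDO in KO (-0.28) and in WT (-0.23) and nearly level between genotypes (-0.07 and -0.02).

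**Figure D2:**
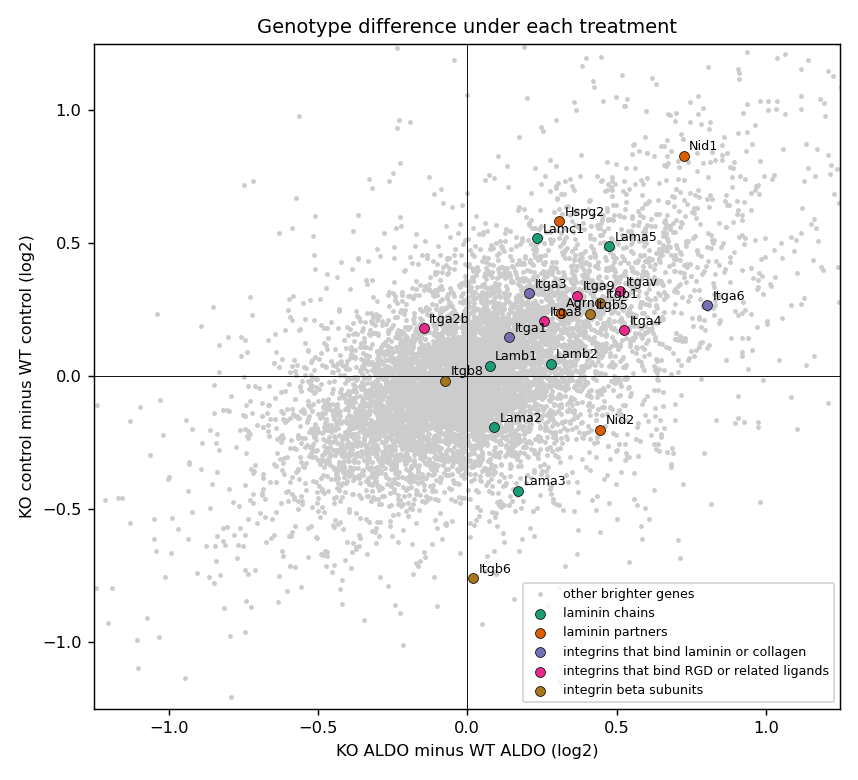
Genotype difference of each brighter member under ALDO (x axis, KO ALDO minus WT ALDO, log2) and under control treatment (y axis, KO control minus WT control, log2), over the other brighter genes in grey; genes beyond the axis limits are not drawn. Most members lie in the upper right, Nid1 farthest out, and Itgb6, Lama3, Nid2 and Lama2 lie right of 0 and below it.

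KO ALDO against WT ALDO addressed the genotypes under aldosterone and salt. Of the 22 brighter members, 20 were above 0 (51.3% of the brighter genes were) and the median was 0.29, against 0.01 over the 9097 genes. None of the 22 was called in either direction, where 1.26% of the brighter genes were higher and 0.352% lower by 2-fold. Itga6 (0.80) and Nid1 (0.72) were higher by 1.5-fold or more and none lower, where 6.55% of the brighter genes were higher and 2.42% lower by that much, and Itga2b (-0.15) and Itgb8 (-0.07) were below 0. Centring each array on its median instead moved the median of all brighter genes by more than 0.1, to -0.13, and that of the members to 0.15 with 16 of 22 above 0. Centring shifts all genes of an array by the same amount, so the gap between members and all genes stays at 0.28 by construction.

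KO control against WT control addressed the genotypes without aldosterone and salt. Of the 22 members 17 were above 0 (49.7% of the brighter genes were), with a median of 0.22 against a median of -0.002 over all brighter genes. None was called, where 0.967% of the brighter genes were higher and 0.176% lower. Nid1 (0.83) was higher and Itgb6 (-0.76) lower by 1.5-fold or more (background 3.83% and 1.51%). Hspg2 (0.58) and Lamc1 (0.52) came next above and Lama3 (-0.43) next below. When each gene was the mean of all its probe sets, dim ones included, the median was 0.05 with 13 of 23 above 0, and with arrays centred on their medians it was 0.11, against -0.11 for all brighter genes.

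The 2 genotype comparisons share no array. Across the 22 members, all read from the same 4 arrays and so not independent of each other, Pearson's r between these comparisons was 0.51 and Spearman's rho 0.55, beside 0.59 and 0.52 across all 9097 genes.

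Markers of other cell types moved along with genotype. Of all brighter genes, 51.3% were above 0 under ALDO and 49.7% under control. All 11 glomerular endothelial markers were above 0 in both genotype comparisons (median 0.46 under ALDO and 0.40 under control), led by Egfl7 (0.68) and Emcn (0.59) under ALDO and by Cdh5 (0.70) and Flt1 (0.63) under control. Their summed intensity was 33681 in KO ALDO, 24343 in WT ALDO, 26040.0 in KO control and 20075 in WT control. Podocyte markers were above 0 in 9 of 10 under ALDO (median 0.15) and in 3 of 10 under control (median -0.13). Proximal tubule markers were below 0 in 10 of 12 under ALDO (median -0.32) and in 11 of 12 under control (median -0.21), with sums of 213586 in KO ALDO, 241203 in WT ALDO, 230746 in KO control and 254797 in WT control. Parietal epithelial markers were above 0 in 6 of 7 in each comparison. Fibroblast markers were above 0 in 4 of 4 in each, with medians of 0.95 under ALDO and 0.78 under control. Smooth muscle and pericyte markers were above 0 in 5 of 6 under ALDO (median 0.66) and 4 of 6 under control (median 0.30). The part of these cells in the members' differences was not tested.

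**Figure D3:**
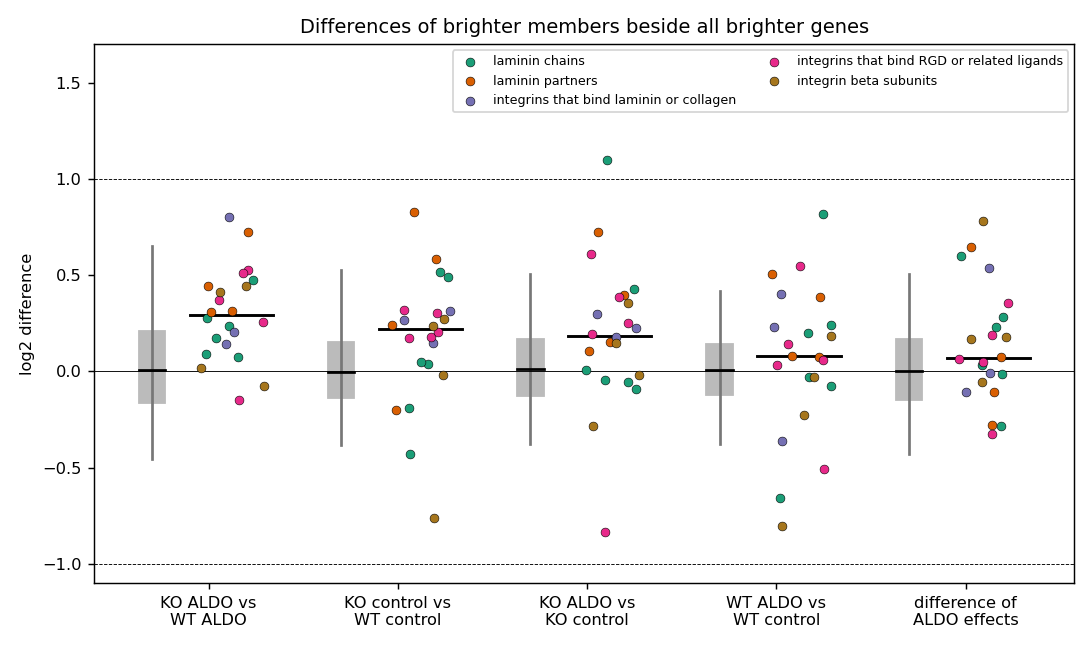
Log2 differences (y axis) of the 22 brighter members in the 4 pairs of arrays and in the difference of ALDO effects, coloured by role, with the median as a black bar. The grey box to the left of each spans the middle 50% of the 9097 brighter genes and the line their percentiles 5 to 95; dashed lines mark 2-fold, which Lama2 alone passed, in KO ALDO against KO control.

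KO ALDO against KO control and WT ALDO against WT control addressed aldosterone and salt within a genotype. In KO, 16 of the 22 members were above 0 (52.3% of the brighter genes were), the median was 0.19 against 0.01 over all brighter genes, and 1 member, Lama2, was called higher and none lower (background 0.572% and 0.132%). Lama2 (1.10), Nid2 (0.73) and Itga9 (0.61) were past 1.5-fold above, and Itga2b (-0.83) below (background 3.43% and 1.36%). Lama2, Nid2 and Itga9 were all under the border of the brighter genes on both control arrays and passed it through the ALDO arrays, so nothing is read from the count of 3 against its background. In WT, 14 of the 22 were above 0 (51.9% of the brighter genes were), the median was 0.08 against 0.01, and none was called (background 0.33% higher and 0.352% lower). Lama2 (0.82) was past 1.5-fold above, and Itgb6 (-0.80) and Lama3 (-0.66) below (background 2.04% and 1.6%). The 2 ALDO comparisons share no array, and ALDO was above control in both for 13 of the 22 members, against 33.2% of the brighter genes. Across the 22 members Pearson's r was 0.69 and Spearman's rho 0.68, beside 0.41 and 0.35 across all 9097 genes. Lama2, Nid2 and Itga9 count in the 16, the 14 and the 13 above and in these correlations. Itga2b was under the border in KO ALDO (7.95) and passed it through the other arrays. The contrast of these values with all genes is thus tied to the filter, and nothing is read from it. Cell type markers moved with ALDO as well. Endothelial markers were above 0 in 10 of 11 in each ALDO comparison, with medians of 0.47 in KO and 0.38 in WT. Podocyte markers were above 0 in 8 of 10 in KO, with Cdkn1c (1.09) and Tcf21 (1.02) called higher, and in 6 of 10 in WT. Their part in the members' ALDO differences was not tested.

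**Figure D4:**
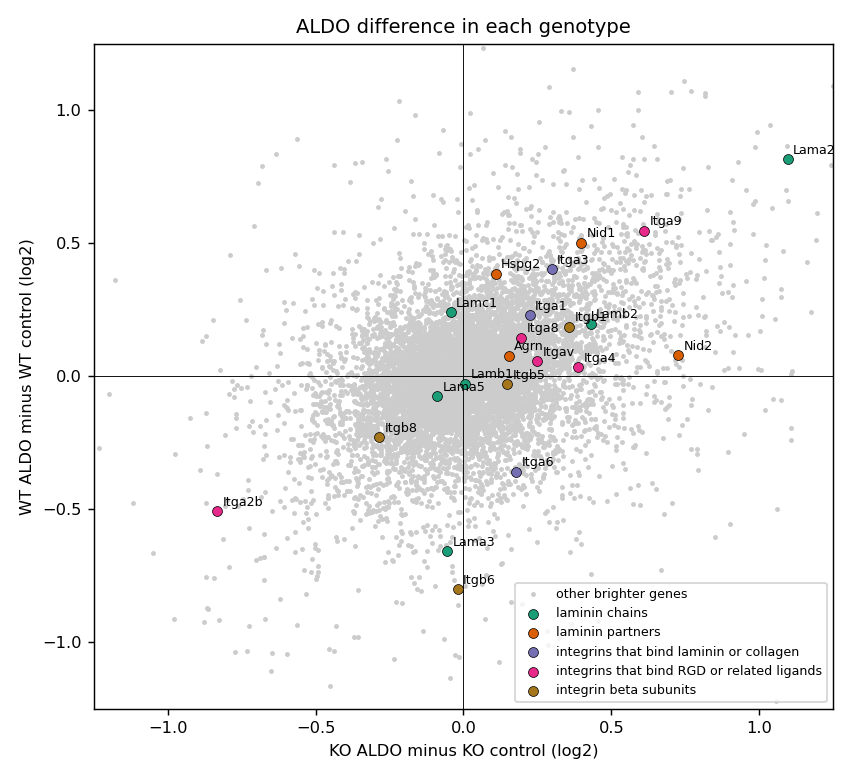
ALDO difference of each brighter member in KO (x axis, KO ALDO minus KO control, log2) and in WT (y axis, WT ALDO minus WT control, log2), over the other brighter genes in grey; genes beyond the axis limits are not drawn. Lama2 lies farthest to the upper right, Itga2b farthest to the lower left, and Itgb6 and Lama3 low on the WT axis and near 0 on the KO axis.

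The difference between the ALDO effects (KO minus WT) had a median of 0.07 over the 22 members, with 14 above 0 (50.6% of the brighter genes were), against 0.004 over all brighter genes. None was called, where 0.594% of the brighter genes were higher and 0.33% lower. Itgb6 (0.78), Nid2 (0.65) and Lama3 (0.60) were past 1.5-fold above and none below (background 3.35% and 2.07%). For Nid2 KO ALDO was the highest array and KO control the lowest. By the brightest probe sets of Itgb6 and Lama3 WT control was the array that stood high. Nid2 passed the border of the brighter genes through the ALDO arrays, so nothing is read from this count against its background. Itga2b (-0.33), Lamc1 (-0.28) and Hspg2 (-0.28) were lowest.

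The 16 dimmer members included all 4 measured leukocyte alpha subunits and Itgb2, the beta partner of Itgal, Itgam and Itgax. Itgb2 had 352 in KO ALDO, 144 in WT ALDO, 278 in KO control and 143.96 in WT control. Both KO arrays were above both WT arrays, by 1.21 (2.31-fold) under ALDO and by 0.88 under control. Itgb2 lay just outside the brighter genes, with a mean log2 signal of 7.84 against 8.04 at the border, and Itga9 (8.06) just inside. Itgax, a subunit of macrophages and dendritic cells, had 187 in KO ALDO, 107 in WT ALDO, 175 in KO control and 72.2 in WT control, with differences of 0.73 and 1.12. Itgal, of lymphocytes and other leukocytes, had 169.7 in KO ALDO, 154 in WT ALDO, 173 in KO control and 85.6 in WT control, so that WT control alone was low. Itgam, of neutrophils and monocytes, was near the floor of the array with 29.0 in KO ALDO, 41.3 in WT ALDO, 47.1 in KO control and 20.5 in WT control, and Itgae lay between 79.1 and 129 on the 4 arrays.

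Macrophage and monocyte markers had the genotype pattern of Itgb2. All 11 brighter markers were above 0 in both genotype comparisons. Of these, 8 were called higher under ALDO and 7 under control, where 1.26% and 0.967% of the brighter genes were. The sum over the 15 measured markers was 16567 in KO ALDO, 7380 in WT ALDO, 14862 in KO control and 7277 in WT control. The highest under ALDO were C1qa (1.86) and C1qb (1.80). In WT control C1qa (243) and C1qb (145) were under the border of the brighter genes, an intensity of 247, so their calls are tied to the filter. None of the markers was at 0, and the lowest single value was 10.4. Fermt3, which encodes the kindlin of blood cells and is needed to activate their integrins, had 587 in KO ALDO, 295 in WT ALDO, 535 in KO control and 284 in WT control. Whether the leukocyte subunits followed the number of such cells or their RNA per cell was not tested.

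**Figure D5:**
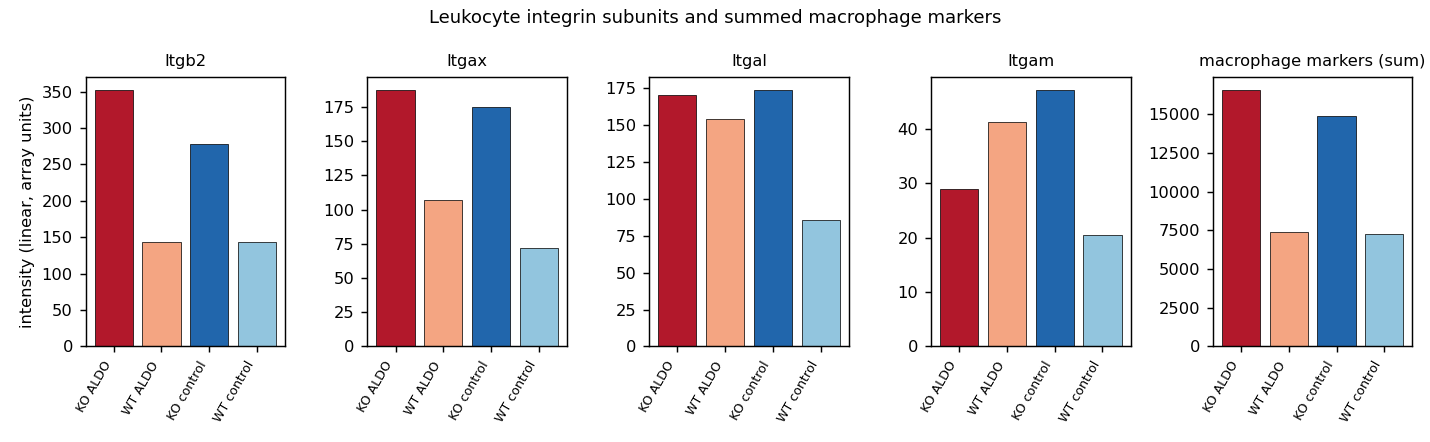
Intensity (y axis, linear array units from 0, with a scale of its own in each panel) of Itgb2, Itgax, Itgal and Itgam and the sum over 15 macrophage and monocyte markers on the 4 arrays, 1 bar per array. Itgb2, Itgax and the marker sum are higher on both KO arrays than on both WT arrays, and Itgam is not.

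Over the 16 dimmer members, 2 were called higher in KO ALDO against WT ALDO, Itgb2 and Lamb3, and none lower, where 8.18% of the dimmer genes were higher and 4.32% lower. In KO control against WT control Itgb3 and Itgax were called higher and Itga5 lower (background 7.92% and 4.75%). Itga5 was called higher in KO ALDO against KO control and none lower (background 7.09% and 4.46%). In WT ALDO against WT control Itgb3 was called higher and Itgb7 lower (background 6.48% and 4.83%). Differences of this size were thus common among dim genes, and several of these rest on values near the floor. Itgb3, the beta subunit that pairs with Itgav or Itga2b, had 147 in KO ALDO, 103.25 in WT ALDO, 78.7 in KO control and 6.77 in WT control. Both of its calls, 2.06 and 2.39, come from that single low value. Lamb3, the beta chain that joins Lama3 in epithelial laminin, had 136 in KO ALDO, 56.8 in WT ALDO, 87.5 in KO control and 94.9 in WT control, and its 1.06 falls to 0.72 with a pseudocount of 64.

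Itga5, the alpha subunit of the main fibronectin receptor, had 55.7 in KO ALDO, 37.8 in WT ALDO, 17.0 in KO control and 58.9 in WT control. Its 4 probe sets were all dim, and over their mean neither call stood (-0.34 and 0.50). Itgb7 was between 6.79 and 30.9. Of the remaining laminin chains, Lama4, the alpha chain of vessel laminins, had 237 in KO ALDO, 155 in WT ALDO, 185 in KO control and 146 in WT control, with both KO arrays above both WT arrays (0.56 and 0.32). Lama1, an alpha chain of developing and tubular basement membranes, had 135 in KO ALDO, 229 in WT ALDO, 218 in KO control and 246 in WT control, and KO ALDO was the low array (-0.70 from WT ALDO and -0.64 from KO control). Itga7, a laminin receptor subunit of muscle, had 199 in KO ALDO, 173 in WT ALDO, 159.7 in KO control and 122 in WT control. Lamc3, Itga2, Itga10 and Itgb4 were between 33.9 and 138 on all 4 arrays and none of them was called.

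Around the members, 4 lists of the same pathway were read. The shares of all brighter genes above 0 were 51.3% in KO ALDO against WT ALDO and 49.7% in KO control against WT control. They were 52.3% in KO ALDO against KO control and 51.9% in WT ALDO against WT control. Among 30 brighter genes of integrin adhesion and activation, 25 were above 0 in KO ALDO against WT ALDO (median 0.20). In KO control against WT control 16 (53.3%) were (median 0.06), which is near the 49.7% of all brighter genes. None was called, where 1.26% of the brighter genes were higher and 0.352% lower under ALDO, and 0.967% and 0.176% under control. Fermt3 (0.96) and the actin crosslinker Flna (0.92) were highest under ALDO, and the talin gene Tln2 (-0.84) and the kinase gene Ptk2b (-0.30) lowest. Under control Fermt3 (0.87) and Cd9 (0.75) were highest and Tln2 (-0.64) and Ptk2b (-0.55) lowest. In KO ALDO against KO control 24 of 30 were above 0 (median 0.23), with Flna (0.76) and Actn1 (0.75) highest, and in WT ALDO against WT control 18 of 30 were (median 0.06), with Lims1 (0.63) and Cd9 (0.59) highest.

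Other laminin receptors were above 0 in 10 of 11 under ALDO (median 0.19) and 9 of 11 under control (median 0.14). Of all brighter genes, 51.3% and 49.7% were. The syndecan Sdc1 (1.003) and Bcam, a receptor for the Lama5 chain (0.77), were highest under ALDO, and Sdc2 (-0.30) lowest. Sdc1 had 810.5 in KO ALDO, 396 in WT ALDO, 653 in KO control and 564 in WT control. It was the 1 of the 11 genes called under ALDO, where 1.26% of the brighter genes were called higher. Dag1, dystroglycan, had 5494 in KO ALDO, 4108 in WT ALDO, 4228 in KO control and 3842 in WT control.

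The list of soluble and cell-bound integrin ligands, which also holds Nphs1, had the widest differences of the 4 lists. Under ALDO 15 of 16 were above 0 (51.3% of the brighter genes were) with a median of 0.72. In KO 6 were called higher and none lower (background 1.26% and 0.352%), led by the fibrinogen chain Fgg (2.79) and Tnc (1.99). Tnc was under the border of the brighter genes, an intensity of 247, on both WT arrays (155 and 193). It passed the border through the KO arrays, so its call is tied to the filter. Under control 13 of 16 were above 0 with a median of 0.48, and Fgg (1.54) and Vcam1 (1.42) were called (background 0.967%). In KO ALDO against KO control all 16 were above 0, and 4 were called higher (background 0.572%), with the fibrinogen chain Fga (1.37) and Fn1 (1.37) highest. In WT ALDO against WT control 10 of 16 were above 0 and none was called. Fn1, fibronectin, had 1980.3 in KO ALDO, 685 in WT ALDO, 757 in KO control and 511 in WT control. Of basement membrane genes outside the family, 10 of 13 were above 0 under ALDO (median 0.30) and 9 of 13 under control (median 0.36). The shares over all brighter genes were 51.3% and 49.7%. Col4a1 (0.97 and 0.72) and Col4a2 (0.96 and 0.70), the chains of the ubiquitous type IV collagen, were highest in both.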

How the data were processed

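Total RNA of mouse glomeruli was measured on 4 Affymetrix arrays, 1 per group, with groups taken from the sample titles. The authors deposited probe set intensity values on a linear scale, made with Affymetrix Expression Console per the submitters' processing notes, which give no version or algorithm. Leaving out the top and bottom 2%, every array averaged 500.003, as scaling to a common level would give. Such scaling hides a change shared by all genes. No scanner files were used.

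Of 45101 probe sets, 34945 had 1 gene symbol in the platform annotation, 932 had several, 9160 had none and 64 were controls. Chromosomes and promoters came from RefSeq tables of GRCm38.p6, in which all 38 members were found. Values were log2(intensity + 16). The probe set with the highest mean log2 value stood for its gene. A member was called at 2-fold. The number of arrays limits precision. Every member is named, and from other lists the highest and lowest genes of a comparison and some ligand and marker genes, chosen after their values were seen. Members and lists were chosen with earlier results of these data known. Alternatives were pseudocounts of 1 and 64, quantile normalization, median centring, no filter on signal, the brightest 25%, the mean of all probe sets, the next-brightest probe set and a 1.5-fold call. The steps were tested on simulated data. Python 3.11.15, pandas 2.3.3 and numpy 2.4.6 were used.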

Additional observations from a re-analysis of the deposited data

Results flagged for a closer look

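For 3 brighter members the genotype difference had opposite signs under the 2 treatments and the gap between them was at least 1.5-fold. With 1 array per group this difference was not tested. Itgb6 had 0.02 under ALDO and -0.76 under control, a gap of 0.78. Its next-brightest probe set gave 0.25 and -0.56, a gap of 0.81. Nid2 had 0.44 and -0.20, a gap of 0.65. Nid2 passed the border of the brighter genes through the ALDO arrays, so its gap is tied to the filter. Lama3 had 0.17 and -0.43, a gap of 0.60.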

How the results depend on the processing

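No paired analysis was possible because each group has 1 array, and no array could be left out. The medians of the 22 members kept their sign in all 5 comparisons under the 9 alternatives. Values that moved by more than 1.5 times are given in the order KO ALDO against WT ALDO, KO control against WT control, KO ALDO against KO control, WT ALDO against WT control and difference of ALDO effects. Median centring gave medians of 0.15, 0.11, 0.12, 0.0463 and 0.0355, and the gap to all genes cannot move under it. The next-brightest probe sets of 11 members gave 0.53 in the first, 0.32 in the third, 0.15 in the fourth and 0.14 in the last, and 1 member, Hspg2, was called lower in the last. The mean of all probe sets gave 0.0482 in the second, 0.00141 in the fourth and 0.14 in the last, and 1 member, Itgb2, was called higher in the first. The brightest 25% held 12 members with 0.0423 in the last, and 0 called in the third. A pseudocount of 64 also left 0 called in the third. Without a signal filter 38 members had 0.0423 in the last, and higher and lower calls were 2 and 0, 2 and 1, 2 and 0, 1 and 1, and 3 and 2. Over all 18193 genes the shares called higher were 4.72%, 4.44%, 3.83%, 3.4% and 5.87%. Those called lower were 2.34%, 2.46%, 2.3%, 2.59% and 5.14%. At 1.5-fold, counts were 2 and 0, 1 and 1, 3 and 1, 1 and 2, and 3 and 0, with the shares over the brighter genes given above. Of 110 differences of brighter members, none changed sign under either pseudocount, 4 did under quantile normalization, 7 under median centring and 18 under the mean of all probe sets, and all 14 past 1.5-fold kept theirs under each of these 5. With the next-brightest probe set 11 of 55 changed sign. Arrays give no depth, and low signal limits the 16 dimmer members.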
